A study of Mustela putorius furo with 10 samples.

Results

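MPO and CEBPE are genes of the granulocyte precursor, the marrow cell that makes the granules of neutrophils. They were examined in peripheral blood mononuclear cells (PBMC) of ferrets together with 6 further genes of the same stage, ELANE, CTSG, AZU1, PRTN3, PRSS57 and MS4A3. The 8 genes were chosen by symbol, with cold against control values of these arrays already known, so their differences are given as a description and are not tested. A gene was found where the RefSeq ferret gene name of the transcript that a probe targets was one of these symbols. In this way 4 of the 8 were found, namely MPO, CEBPE, PRSS57 and MS4A3, and 3 of them passed the filter on dim probes, among 26303 genes tested. ELANE, CTSG, AZU1 and PRTN3 were not matched by symbol and are not analysed here.

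PBMC came from the heart blood of male ferrets aged 3 months. The control group was kept at 22 °C (6 ferrets), and the cold group spent 1 week at 4 °C (4 ferrets). The cold ferrets were caged singly, and the labels state no such housing for the control ferrets, so that cold and single housing cannot be told apart. Each ferret was measured on 1 Agilent array, with its own RNA in the Cy3 channel and a reference pool of PBMC and other ferret tissues in the Cy5 channel of every array. PBMC are a mixture of cells, in which fewer cells of a type and less RNA per cell cannot be told apart.

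Neutrophils develop in the marrow from myeloblasts through promyelocytes, myelocytes and band cells. Promyelocytes make the proteins of the primary, or azurophil, granules, and myelocytes and later stages make those of the specific and gelatinase granules. Mature neutrophils keep these proteins but carry little of the mRNA for the azurophil group, so these transcripts mark precursors more than circulating cells. MPO encodes myeloperoxidase, the haem enzyme of azurophil granules that makes hypochlorous acid, and monocyte precursors make it as well. CEBPE encodes C/EBP epsilon, a leucine zipper transcription factor needed for late granulocyte maturation and for the specific granule genes. PRSS57 encodes a serine protease of the azurophil granules, and MS4A3 encodes a membrane protein of granulocyte and monocyte progenitors.

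Values are given on 2 scales. The log2 ratio is the Cy3 to Cy5 ratio after background correction and loess within each array. It is positive where the ratio was above that usual for spots of like brightness on the same array. Its sign does not tell whether the ferret had more of the RNA than the pool. The Cy3 level is the log2 Cy3 intensity after quantile normalisation between arrays and does not use the reference. Between 50.4 and 63.5% of the spots of a control array had Cy3 well above background, and between 58.0 and 61.1% of a cold array did. Cy5 was dimmer and differed more between arrays, with 27.0 to 54.9% of the spots above background in control and 40.5 to 64.0% in cold. Over all genes, the correlation between arrays was 0.838 to 0.938 within control, 0.871 to 0.917 within cold and 0.756 to 0.932 between the groups.

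Each of the 4 genes found was covered by 1 target sequence with 4 probes of 2 spots, thus by 8 spots per array. All 8 Cy3 spots of MPO, CEBPE and PRSS57 were well above background on all 10 arrays, and none was saturated or marked as an outlier. None of the 8 MS4A3 spots was above background on the 6 control arrays, nor on cold 2 and cold 4. On cold 1, 2 MS4A3 spots were above background, and on cold 3 it was 1 spot.

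MPO was higher in every cold ferret than in every control ferret. Its log2 ratio in the control ferrets ran from -0.66 through a median of -0.16 to 0.19. In cold 1 to cold 4 it was 1.73, 0.37, 1.51 and 1.11. Cold 2 was the lowest of the cold ferrets and lay 0.18 above the highest control ferret, so the groups came close but did not overlap. The log2 ratio averaged 1.18 ± 0.60 (SD, n = 4) in cold against -0.23 ± 0.35 (SD, n = 6) in control, a difference of 1.41 or 2.66-fold. The Cy3 level alone showed a larger difference. It ran from 8.90 through a median of 9.26 to 10.43 in control and was 12.10, 10.68, 11.53 and 11.17 in cold 1 to cold 4. The Cy3 level averaged 11.37 ± 0.60 (SD, n = 4) in cold against 9.43 ± 0.59 (SD, n = 6) in control, 3.83-fold apart and again without overlap. Before any normalisation, the MPO spots read 487 to 1262 intensity units over the local background in control, and 4967, 2190, 3908 and 2348 in cold 1 to cold 4.

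CEBPE was also higher in every cold ferret, by a smaller amount. Its log2 ratio in the control ferrets ran from 0.21 through a median of 0.60 to 0.95. In cold 1 to cold 4 it was 2.13, 1.23, 1.69 and 1.42. Cold 1 was the highest and cold 2 the lowest of the cold ferrets in the ratio, as for MPO, and the gap to the highest control ferret was 0.28. This order changed with the scale. With each array centred on its median in place of loess, cold 2 was the highest cold ferret for CEBPE (3.46). Cold 1 was then the lowest cold ferret for MPO (2.24). The median Cy5 intensity of cold 1 to cold 4 was 152, 48, 98 and 92, and its part in the order was not tested. The log2 ratio averaged 1.62 ± 0.39 (SD, n = 4) in cold against 0.59 ± 0.27 (SD, n = 6) in control, a difference of 1.03 or 2.04-fold. The CEBPE Cy3 level ran from 9.53 through a median of 10.64 to 11.16 in control and was 11.89, 11.37, 11.24 and 11.39 in cold 1 to cold 4. The means of the Cy3 level were 10.49 ± 0.57 (SD, n = 6) and 11.47 ± 0.29 (SD, n = 4), 1.98-fold apart, with a gap of only 0.08 between the groups. The reference side was weak for this gene. On control 2 none of its 8 Cy5 spots was above background, and on control 6 it was 1, so the ratio of these arrays rests on a dim reference.

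PRSS57 had the smallest difference of the 3 on both scales. Its log2 ratio ran from 0.08 through a median of 0.46 to 0.61 in control and was 1.17, 0.94, 1.44 and 1.43 in cold 1 to cold 4. All cold ferrets lay above all control ferrets, with a gap of 0.33. The means were 0.42 ± 0.19 (SD, n = 6) and 1.24 ± 0.24 (SD, n = 4), 0.82 or 1.77-fold apart. On the Cy3 scale the groups overlapped. The PRSS57 Cy3 level ran from 8.80 through a median of 9.48 to 10.45 in control and was 9.62, 10.57, 10.21 and 10.78 in cold 1 to cold 4, so that 2 of the 4 cold ferrets exceeded all control ferrets. Cold 1, the highest ferret for MPO and CEBPE, was here the lowest of the cold group. The reference spots of PRSS57 were the dimmest of the 3 genes, with 0 of 8 Cy5 spots above background on control 6 and 1 of 8 on control 2 and on control 3.

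MS4A3 gave no difference that could be sized. Its spots read 57.6 to 69.5 intensity units over the local background in control, and 93.9, 74.7, 79.6 and 61.3 in cold 1 to cold 4. The Cy3 level averaged 6.83 ± 0.13 (SD, n = 4) in cold against 6.56 ± 0.09 (SD, n = 6) in control. In control the transcript was not well above background, so its level has only an upper bound there, 6.87, which is above the cold mean. All 4 cold values were above all 6 control values, by a gap of 0.03 in the Cy3 level and 0.06 in the log2 ratio, but most of them were not measured above background. No fold change is therefore given.

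**Figure D1:**
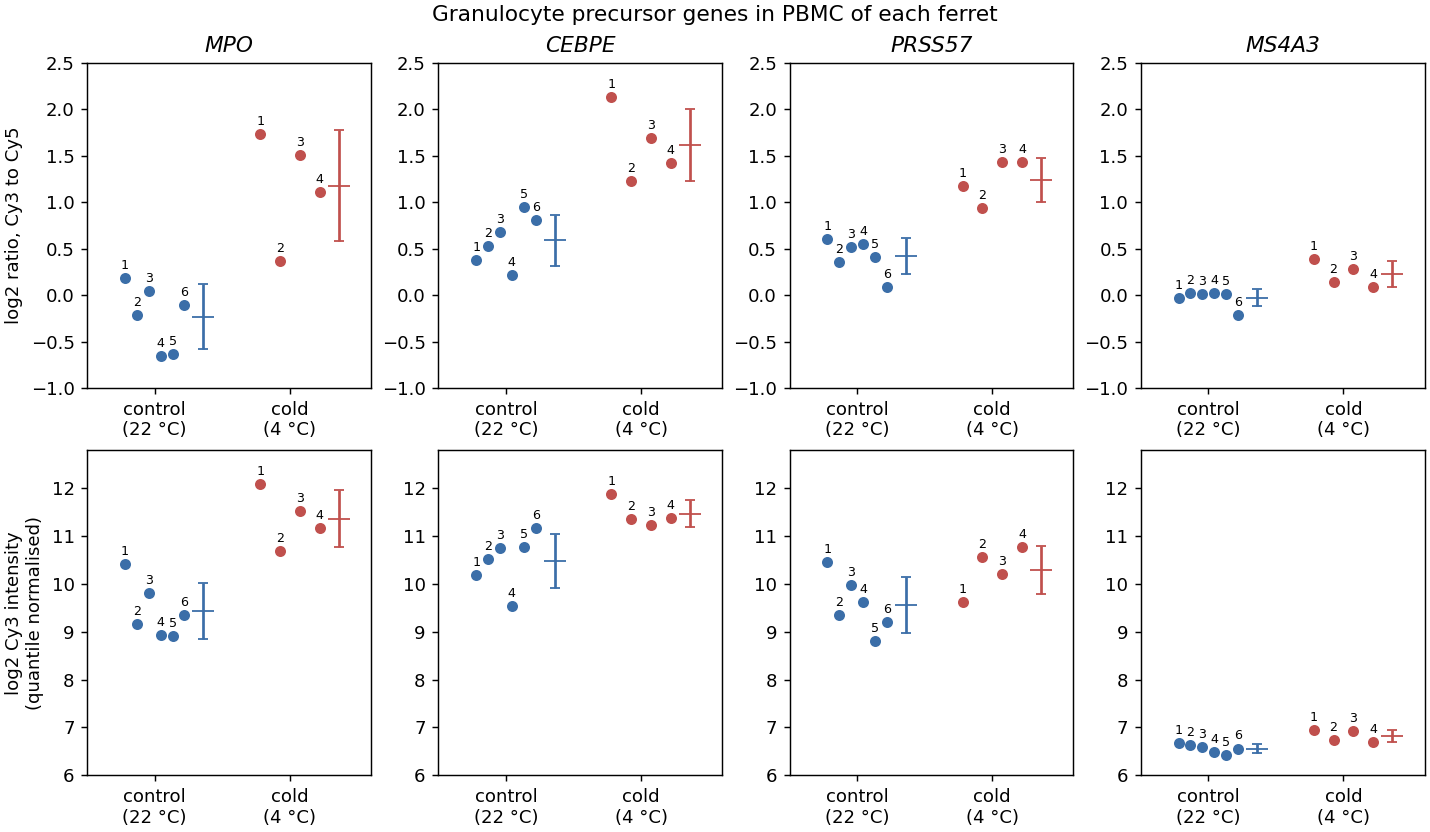
Log2 ratio of Cy3 to Cy5 (top) and log2 Cy3 intensity after quantile normalisation (bottom) of the 4 granulocyte precursor genes found, with 1 numbered point for each ferret of the control (blue, n = 6) and cold (red, n = 4) groups, and bars for the mean ± SD. MPO and CEBPE lie higher in all cold ferrets than in all control ferrets on both scales, PRSS57 does so only in the ratio, and MS4A3 stays between 6.43 and 6.95 on the Cy3 scale, where most of its spots were not well above background.

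For scale, the lowest cold value exceeded the highest control value for 3.07% of all genes in the log2 ratio and for 3.57% in the Cy3 level. The share with the reverse order was 2.15% in the ratio. The middle 90% of all genes differed between the groups by -0.55 to 0.50 in the log2 ratio and by -0.44 to 0.59 in the Cy3 level. In descending order of the difference in log2 ratio, MPO stood at place 14, CEBPE at 122 and PRSS57 at 340 of 26303 genes. In the Cy3 level the places were 11, 309 and 807. Since the genes were chosen with this contrast known, the places only describe them.

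The probes of each gene gave like values. The 4 MPO probes differed between the groups by 1.22 to 1.60 in the log2 ratio and by 1.72 to 2.03 in the Cy3 level, and none of the 4 overlapped between the groups on either scale. The 4 CEBPE probes differed by 0.95 to 1.08 in the ratio and by 0.93 to 1.04 in Cy3, and on each scale 3 of them did not overlap. The 4 PRSS57 probes differed by 0.72 to 0.92 in the ratio, where 3 did not overlap, and by 0.70 to 0.77 in Cy3, where all did. Probes of 1 gene share their RNA and are no replicates of the treatment.

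**Figure D2:**
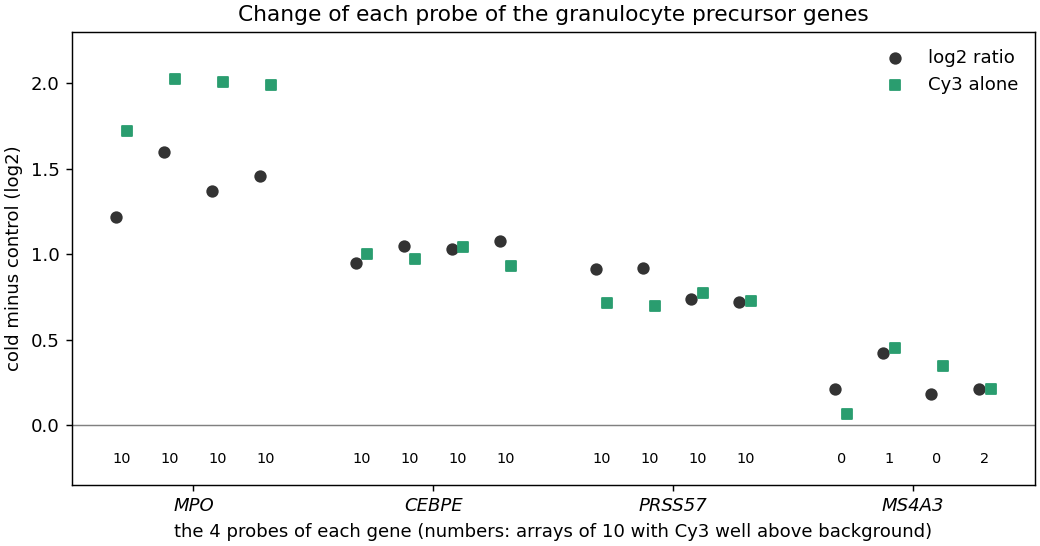
Cold minus control difference (log2) of each of the 4 probes of MPO, CEBPE, PRSS57 and MS4A3, in the Cy3 to Cy5 ratio (black circles) and in Cy3 alone (green squares), with the number of arrays on which the probe was well above background in Cy3 written under each. All MPO probes lie above 1.2 on both scales, and the MS4A3 probes were above background on 0 to 2 of 10 arrays.

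The reference channel was brighter on most cold arrays before normalisation, where the Cy5 spots of MPO read 30.2 to 161 intensity units over the local background in control and 74.8 to 705 in cold. After quantile normalisation the Cy5 level of MPO was 7.40 ± 0.11 (SD, n = 4) in cold against 7.21 ± 0.11 (SD, n = 6) in control, with overlap. The Cy5 differences of CEBPE and PRSS57 were 0.13 and 0.06. The direction was the same in each group of arrays that shared a position on the slide. At the first position (4 control, 2 cold) the log2 ratio of MPO differed by 1.25, that of CEBPE by 1.20 and that of PRSS57 by 0.66. At the second (2 control, 2 cold) the differences were 1.61, 0.74 and 0.97. Without any single array, the difference stayed between 1.23 and 1.68 for MPO, between 0.85 and 1.16 for CEBPE and between 0.76 and 0.93 for PRSS57. For the Cy3 level these ranges were 1.69 to 2.17, 0.80 to 1.12 and 0.57 to 0.95.

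The way the ratio was scaled changed the sizes and, for CEBPE and PRSS57, the overlap. Centring each array on its median, without loess, gave differences of 1.24 for MPO, 0.51 for CEBPE and 0.55 for PRSS57. Under that scaling the median of all genes itself stood at -0.43, and the groups overlapped for CEBPE and PRSS57 but not for MPO. In the log2 values that the authors deposited per target sequence, MPO differed by 1.57, CEBPE by 0.86 and PRSS57 by 0.90, with overlap for PRSS57 only. The processed intensities of the scanner software gave 1.51, 0.75 and 0.50, with overlap for PRSS57 only. MPO was thus the only gene of the 3 whose groups stayed apart under every one of these scalings, Cy3 alone included. Under median centring its groups nearly touched, with a gap of 0.04 between control 1 at 2.21 and cold 1 at 2.24. The share of all genes without overlap is given only for the loess ratio and the Cy3 level.

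**Figure D3:**
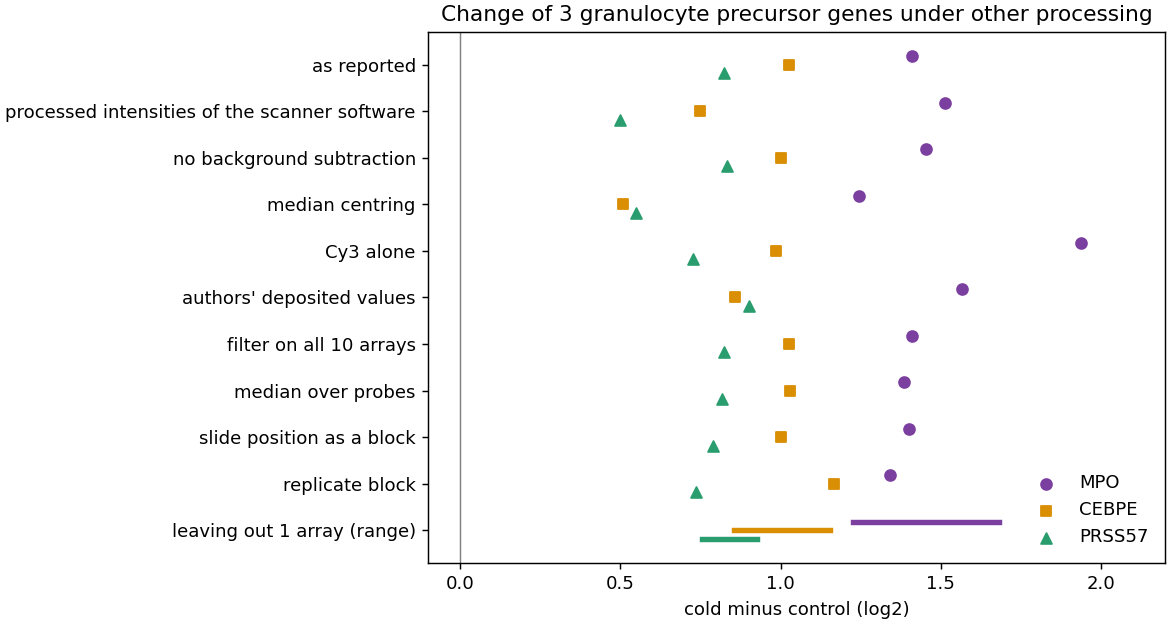
Cold minus control difference (log2) of MPO (purple circles), CEBPE (orange squares) and PRSS57 (green triangles) as reported and under 9 other settings, with the range over the fits that leave out 1 array as bars. All values lie above 0, from 0.50 for PRSS57 with the scanner software's processed intensities to 1.94 for MPO in Cy3 alone.

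With the group means taken off, the 3 genes did not follow each other closely from ferret to ferret. Over the 10 arrays the log2 ratio of MPO correlated with that of CEBPE at r = 0.878, which includes the difference between the groups. After each group's mean was taken off, r was 0.522 for MPO with CEBPE, 0.358 for MPO with PRSS57 and -0.17 for CEBPE with PRSS57. In the Cy3 level the same 3 values were 0.19, 0.27 and -0.46. Among the 6 control ferrets alone, MPO and PRSS57 had r = 0.867 in the Cy3 level but 0.04 in the log2 ratio. In the Cy3 level of these ferrets, CEBPE had r = 0.05 with MPO and -0.40 with PRSS57. These correlations over 10 arrays or fewer describe genes that share array, depth and normalisation.

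Over the 8338 tested genes whose symbol is not a placeholder beginning with LOC, the precursor genes left out, the log2 ratio patterns most like that of MPO belonged to UNC45B (r = 0.956 over 10 arrays), BMP15 (0.944), NUP93 (0.927), SLC22A15 (0.925) and AMDHD2 (0.921). Only SLC22A15, which encodes a membrane transporter, was also close to MPO in the Cy3 level (r = 0.881). For the other 4 genes that value was 0.508 to 0.682. The 5 genes differed between the groups by less than MPO, from 0.20 for UNC45B to 0.84 for SLC22A15. UNC45B and SLC22A15 rest on 2 kept probes each and BMP15 on 1. The Cy3 level of UNC45B averaged 7.20 in control and 7.36 in cold. This was near the first percentile of probes above background, which ran from 7.00 to 7.85 over the arrays. The patterns most like that of CEBPE were those of LCN2 (r = 0.958), ZNF296 (0.947), HABP4 (0.944), OGFOD2 (0.942) and HAPLN3 (0.941). LCN2 encodes lipocalin 2, an iron siderophore binding protein of the specific granules, and it kept a high likeness in the Cy3 level (r = 0.877). The other 4 were lower there, with OGFOD2 at 0.706, HABP4 at 0.680 and HAPLN3 at 0.416. ZNF296 was at 0.171 and did not show the likeness on that scale.

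Genes that work beside the precursor genes were compared through the fit over all 26303 genes. No gene passed an adjusted p of 0.05 in the log2 ratio (limma, lowest adjusted p = 0.0576), while 6501 had an unadjusted p under 0.05. By the Cy3 level 741 genes passed. Genes are therefore said to rise or fall below where they passed the threshold of the study's methods, an unadjusted p of 0.01, and adjusted p values are printed beside them. This threshold was passed by 5.21% of all genes as higher and by 3.43% as lower in cold in the ratio. In the Cy3 level these shares were 5.48 and 4.36%. Across the 7 lists of the granulocyte lineage, 92 of 154 listed genes were tested, of which 17 (18.5%) were higher and 2 lower in cold in the ratio, and 19 higher and 2 lower in the Cy3 level. The count of higher genes was 11 with the processed intensities, 10 by the methods' t-test, 6 in the deposited values and 2 under median centring, where 4 were lower. On both scales, 13 of the higher and 1 of the lower genes were the same. At the adjusted threshold 8 lineage genes were higher and 1 lower in the Cy3 level, against 1.89 and 0.924% of all genes. In the ratio, all cold values were above all control values for 7 lineage genes and below them for 1. The median difference in log2 ratio was 0.24, beside -0.01 over all genes.

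Other genes of azurophil granules and promyelocytes moved both ways. Of 20 listed, 10 were tested, with a median difference of 0.22 in the log2 ratio, 2 higher and 1 lower. ATP8B4, a phospholipid-transporting ATPase, was at 1.56 ± 0.43 (SD, n = 4) in cold against 0.71 ± 0.33 (SD, n = 6) in control, a rise of 0.85 (limma adjusted p = 0.0772) that did not pass with the processed intensities (0.51) and under median centring (0.29). CD63, a tetraspanin of the azurophil granule membrane, rose by 0.49 in the ratio (limma adjusted p = 0.11) but lay 0.10 under the median of all genes with median centring and differed by 0.042 in the deposited values. It passed under 2 of the 5 other scalings and in 1 of the 10 fits that each leave out an array. PLAC8, a small cysteine-rich protein of myeloid and lymphoid cells, fell by 0.73 (limma adjusted p = 0.0755). Its log2 ratio ran from 0.84 to 1.34 in control and was 0.57, 0.43, -0.30 and 0.57 in cold 1 to cold 4, without overlap. CTSC, the protease that activates the serine proteases of azurophil granules, differed by -0.09 (limma adjusted p = 0.602). LYZ, the lysozyme gene, differed by 0.60 (limma adjusted p = 0.16). The list as a whole stood below the median of all genes under median centring and in the deposited values, and above it under the other 4 scalings.

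The list of specific granule genes had a median difference of 0.64 over the 10 tested, of which 2 passed the threshold, both higher. CEBPE is known to switch on some specific granule genes, but the list was not limited to its targets and also holds B2M. By the Cy3 level 3 were higher and none lower. LCN2 ran from 0.08 to 0.47 in control and was 1.14, 0.76, 0.98 and 0.73 in cold 1 to cold 4. Its means were 0.23 ± 0.14 (SD, n = 6) and 0.90 ± 0.20 (SD, n = 4), a rise of 0.67 without overlap (limma adjusted p = 0.0576). LCN2 no longer passed with the processed intensities, where it differed by 0.29, and under median centring, where it differed by 0.74. HPSE, the gene of heparanase, averaged 2.29 ± 0.66 (SD, n = 4) in cold against 0.82 ± 0.55 (SD, n = 6) in control, a rise of 1.47 (limma adjusted p = 0.0734). Its control ferrets ran up to 1.46 and the lowest cold ferret, cold 2, was at 1.48, so the groups lay next to each other without overlap in the ratio. In the Cy3 level they overlapped, with control 6 at 12.40 and cold 2 at 11.69. HPSE rests on 2 kept probes. HPSE no longer passed under median centring, where it differed by 0.96. LTF and CAMP were not matched by symbol and are not analysed here. The median of the list stayed above that of all genes under all 6 scalings, by 0.50 to 0.75.

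Gelatinase granule and mature neutrophil genes gave 8 higher and none lower of 17 tested, with a median difference of 0.77. The Cy3 level gave 7 higher and none lower. S100A9, a calcium-binding protein abundant in neutrophils and monocytes, was at 2.70 ± 0.28 (SD, n = 4) in cold against 1.55 ± 0.56 (SD, n = 6) in control, a rise of 1.15 (limma adjusted p = 0.0736). It no longer passed in the deposited values, where it differed by 0.64, and under median centring, where it differed by 0.084. SLC11A1, a metal transporter of phagocyte granules, rose by 0.91 (limma adjusted p = 0.0736) and MMP25, a membrane metalloprotease, by 0.82 (limma adjusted p = 0.0736). SLC11A1 was lost in the deposited values (0.52) and under median centring (0.061), and MMP25 passed under only 1 of the 5 other scalings, with 0.61 in the Cy3 level, 0.50 with the processed intensities, 0.64 in the deposited values and 0.27 under median centring. CSF3R, the receptor for the granulocyte growth factor G-CSF, differed by 0.40 in the ratio (limma adjusted p = 0.48) and by 0.05 in the Cy3 level. Without single arrays its difference in the ratio ran from 0.18 to 0.63. The list median was 0.41 to 0.79 above that of all genes under the 6 scalings. In the deposited values 2 of the 17 genes passed the threshold and under median centring 1 did.

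Transcription regulators of granulocyte development gave 1 call among 21 tested genes in the ratio, with a median difference of 0.10. In the Cy3 level 3 were higher and 0 lower. Under median centring 0 were higher and 3 lower, and in the deposited values 0 were higher and 1 lower. The call in the ratio was KLF4, a zinc finger factor of monocyte and granulocyte genes. It was at 0.72 ± 0.58 (SD, n = 4) in cold against -0.06 ± 0.28 (SD, n = 6) in control, a rise of 0.78 (limma adjusted p = 0.105). Cold 3 had the highest value, 1.56, and without it the difference was 0.50 and no longer passed. It was also lost in the deposited values (0.57) and under median centring (0.15). KLF4 passed in 4 of the 10 fits that each leave out an array. SPI1, the gene of the myeloid factor PU.1, differed by 0.22 in the ratio (limma adjusted p = 0.343) and by 0.42 in the Cy3 level (limma adjusted p = 0.0732), and its sign turned under median centring and in the deposited values. The relatives of CEBPE, named here after their values were seen, did not pass. CEBPB differed by 0.23, CEBPD by 0.43 and CEBPG by -0.07. CEBPA and GFI1, regulators that act before and beside CEBPE, were not matched by symbol and are not analysed here.

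Progenitor markers gave no call in the ratio among 9 tested (0 of 9 higher, 0 of 9 lower) and 2 higher in the Cy3 level. These were HLF (0.84) and ERG (0.53), transcription factor genes of blood stem cells, named after their values were seen. In the ratio they differed by 0.25 and -0.25 and did not pass. On that scale the largest difference was that of CD34, the surface antigen of early progenitors. It was at -3.49 ± 0.29 (SD, n = 4) in cold against -2.68 ± 0.55 (SD, n = 6) in control, a difference of -0.81 (limma adjusted p = 0.119) that shrank to -0.15 in the Cy3 level. Cell division genes, which dividing precursors express, gave 1 call of 23 in the ratio with a median difference of 0.02. RRM2, a subunit of ribonucleotide reductase, was at 0.88 ± 0.16 (SD, n = 4) in cold against 0.22 ± 0.25 (SD, n = 6) in control, a rise of 0.67 (limma adjusted p = 0.0659). It no longer passed in the deposited values, where it differed by 0.33, and under median centring, where it differed by -0.13 while all genes had a median of -0.43. By the Cy3 level 2 division genes passed, both higher, with a list median of 0.29.

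Growth factor, retention and release genes of marrow granulocytes gave 2 calls of 16, both higher, with a median difference of 0.26. They were the chains of the GM-CSF receptor. CSF2RA was at 0.89 ± 0.37 (SD, n = 4) in cold against 0.27 ± 0.11 (SD, n = 6) in control, a rise of 0.62 (limma adjusted p = 0.0736) that passed under all 5 other scalings, with values from 0.43 in the Cy3 level to 1.41 with the processed intensities. CSF2RB rose by 0.68 (limma adjusted p = 0.0767) and passed under 1 of the 5 others, with 0.29 in the deposited values and -0.12 under median centring, 0.31 above the median of all genes there. CXCR4, the chemokine receptor that holds granulocytes in the marrow, differed by -0.32 (limma adjusted p = 0.521).

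Partners of the peroxidase and of the granule proteases gave 3 higher and 1 lower of 13 in the ratio, with a median difference of 0.07. Under median centring and in the deposited values 0 were higher and 0 lower. The list median there lay 0.28 and 0.24 below that of all genes. NCF4, a regulatory subunit of the NADPH oxidase that supplies peroxidases with their substrate, was at 1.80 ± 0.22 (SD, n = 4) in cold against 1.20 ± 0.23 (SD, n = 6) in control, a rise of 0.60 (limma adjusted p = 0.0736), and it no longer passed in the deposited values, where it differed by 0.13, and under median centring, where it lay 0.02 above the median of all genes. CTSS, a cysteine protease, rose by 0.49 (limma adjusted p = 0.114), with a sign that turned under median centring and in the deposited values, and it passed under 0 of the 5 other scalings and in 3 of the 10 fits that each leave out an array. CAT, the catalase gene, fell by 0.48 in the ratio (limma adjusted p = 0.0924) and differed by -0.15 in the Cy3 level, and it passed under 1 of the 5 other scalings and in 7 of those 10 fits. EPX, the eosinophil peroxidase and closest relative of MPO in granulocytes, differed by 0.10 (limma adjusted p = 0.581). It differed by 0.54 with the processed intensities and by 0.50 in the deposited values, and passed under 0 of the 5 other scalings.

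**Figure D4:**
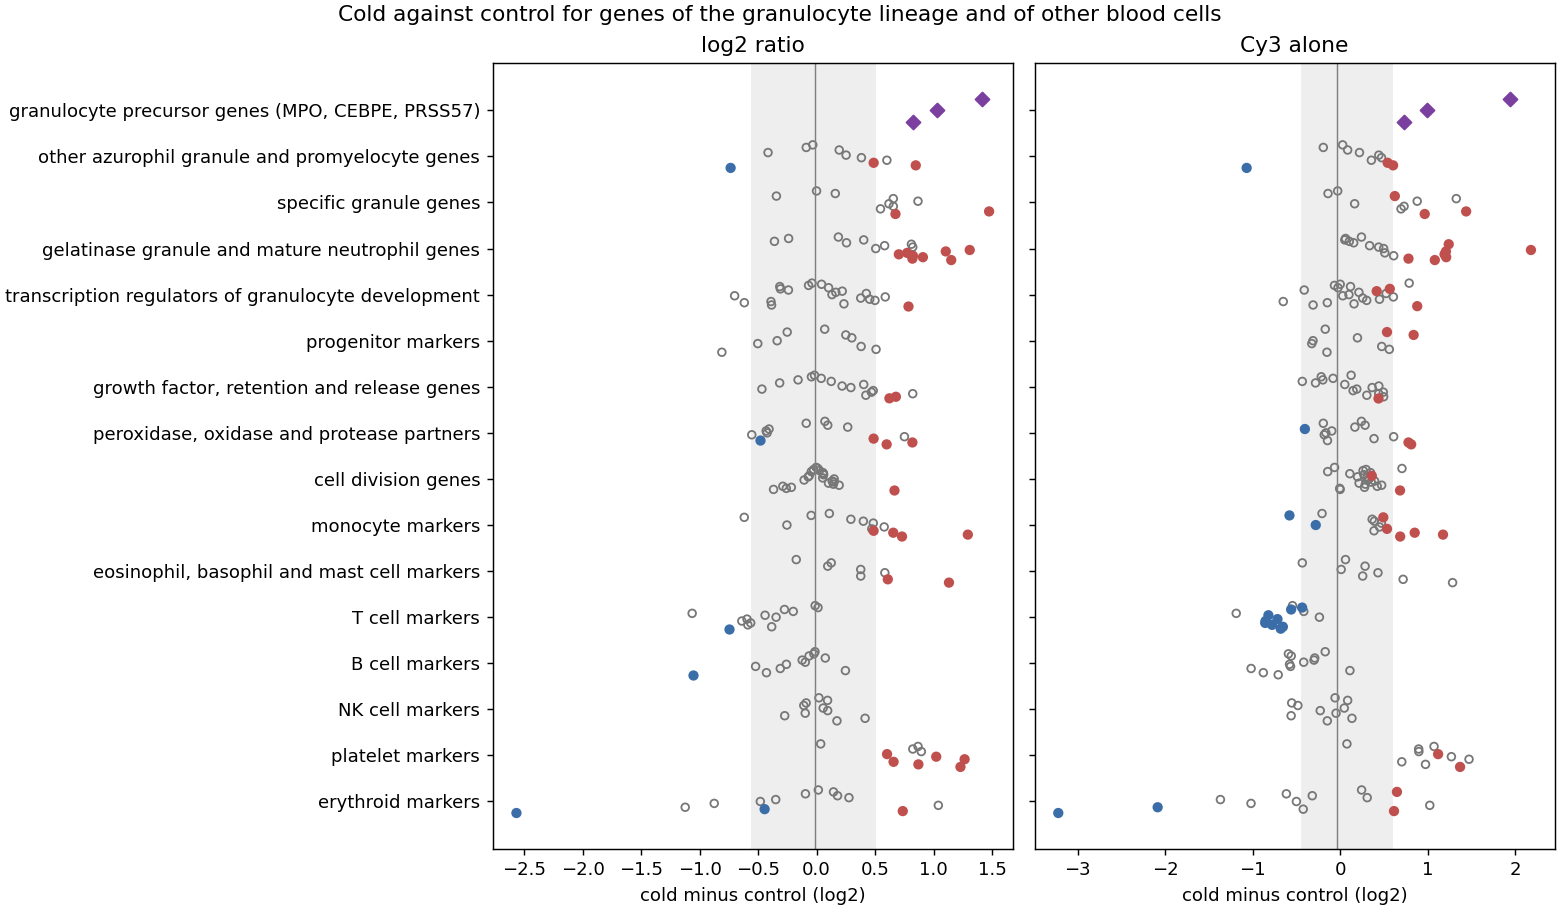
Cold minus control difference (log2) of each tested gene of the granulocyte lineage lists, the cell division list and the lists of other blood cell markers, in the Cy3 to Cy5 ratio (left) and in Cy3 alone (right). Filled points passed an unadjusted limma p of 0.01 (red higher, blue lower), purple diamonds are MPO, CEBPE and PRSS57, which are shown as a description, the grey band holds the middle 90% of all genes and the grey line marks their median. The neutrophil and platelet lists lie mostly to the right and the T cell list to the left.

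Markers of some other blood cells differed between the same groups, and their part in the values of MPO and CEBPE was not tested. Markers of the labelled tissue were present, and 13 of 17 listed T cell, 12 of 15 B cell, 10 of 15 NK cell and 13 of 18 monocyte markers passed the filter on dim probes. Markers of cells that a density gradient should thin out passed it as well, with 17 of 30 for mature neutrophils and 13 of 24 for erythroid cells, and so did 10 of 15 platelet markers. In the ratio, T cell markers had a median difference of -0.44 (1 of 13 lower, 0 higher) and in the Cy3 level of -0.68 (9 of 13 lower). The summed T cell level on the linear Cy3 scale was 122300 to 167700 in control and 51470 to 115800 in cold, without overlap. CD3E, part of the T cell receptor complex, was at -0.33 ± 0.52 (SD, n = 4) in cold against 0.23 ± 0.10 (SD, n = 6) in control. It did not pass in the ratio (limma adjusted p = 0.123), where the groups overlapped, with cold 1 at 0.16 and control 4 at 0.07. In the Cy3 level CD3E differed by -0.86 and passed (limma adjusted p = 0.0673). Monocyte markers had a median difference of 0.47 with 4 of 13 higher and none lower in the ratio, and 5 higher and 2 lower in the Cy3 level. With the processed intensities and under median centring 0 were higher, and in the deposited values 1 was. Their summed level overlapped, at 149400 to 179900 in control and 160200 to 239800 in cold. The summed mature neutrophil level was 194700 to 299700 in control and 387100 to 542200 in cold, without overlap and with a mean 1.89 times as high. Bright genes weigh most in such a sum. The brightest in cold were S100A8, S100A12 and S100A9, with mean Cy3 levels of 17.47, 16.36 and 16.16. In control these were 16.26, 15.12 and 15.08. In that level 7 of the 17 genes passed as higher, while MMP9, CXCR2 and CSF3R differed by 0.24, 0.44 and 0.05 and did not pass. Platelet markers had a median of 0.87 with 6 of 10 higher in the ratio, 2 in the Cy3 level, 3 in the deposited values and 0 under median centring. Their summed level overlapped, at 18680 to 107800 and 59420 to 123700.

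Eosinophil, basophil and mast cell markers had a median difference of 0.38 with 2 of 8 higher in the ratio and 0 of 8 in the Cy3 level, and their summed level was 3159 to 8704 in control and 6527 to 9610 in cold. B cell markers had a median of -0.11 with 1 of 12 lower in the ratio and 0 of 12 in the Cy3 level, and summed to 12040 to 48240 and 19380 to 23260. NK cell markers had a median of 0.04 with no call among 10 on either scale and summed to 24760 to 63980 and 17360 to 66270. Erythroid markers had a median of -0.09 with 1 of 13 higher and 2 lower in the ratio, 2 higher and 2 lower in the Cy3 level, and summed to 35410 to 106100 in control and 24940 to 29060 in cold. The 2 brightest erythroid genes both fell in the ratio. EPB41, a protein of the red cell skeleton, fell by 0.44 (limma adjusted p = 0.109). HBM, a globin gene, fell to -1.61 ± 0.78 (SD, n = 4) in cold against 0.96 ± 0.81 (SD, n = 6) in control (limma adjusted p = 0.0576). SLC25A37, a mitochondrial iron carrier named after its values were seen, rose by 0.74 without overlap (limma adjusted p = 0.0576).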

How the data were processed

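The authors deposited, for each of the 10 arrays, the spot intensity files of Agilent Feature Extraction 10.7.3.1 (median brightness and local background per channel, not normalised) and a table that gives 1 log2 value for each target sequence and array. Background was corrected with normexp (offset 50) and ratios were normalised by loess (span 0.3, 4 iterations) in limma 3.58.1 under R 4.3.3. The mean spot intensity was planned, but the files carry the median, which was used. Spots marked as outliers were dropped, and spots and then probes of a gene were averaged. Probes stayed in when, on 4 arrays or more, a share of 0.5 or more of their spots was well above background in Cy3. The RefSeq table of assembly ASM1176430v1.1 gave a gene name to 21104 of 45328 target sequences. After the filter 26303 genes remained (9276 with a symbol), and 2 with a missing value were left out. The groups were compared by limma's lmFit and eBayes, and p values were adjusted by Benjamini-Hochberg across all genes tested. The procedure was tested on simulated data. Replicates are separate ferrets, and the 6 control and 4 cold arrays limit the precision.

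The 8 genes and all lists were chosen with earlier results of these data known. Named are these 8, up to 4 genes past 0.01 of each lineage and division list (or else the largest change), the 2 brightest markers of each other cell type, of which the text gives a part, the 5 patterns nearest to MPO and to CEBPE, and 15 genes by role. A gene that the rule names is counted in its lists but not reported here. Of the latter, BPI, CAMP, CEBPA, GFI1, KIT, LTF and MKI67 were not matched by symbol and are not analysed here. The pool had the same dye on every array, so dye and sample cannot be told apart within an array.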

Additional observations from a re-analysis of the deposited data

Results flagged for a closer look

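Of 136 groups of values examined for named genes, 8 held a single array far from the rest, where chance gives about 1 in 20. None was a value of MPO, CEBPE or PRSS57. PLAC8 was at a log2 ratio of -0.30 on cold 3, with the nearest cold ferret at 0.43. CTSS was at 1.34 on cold 1, with the nearest at 1.79. S100A9 was at 0.47 on control 4 (nearest 1.51). ZNF296 was at 0.37 on control 5 (nearest 0.21) and HAPLN3 at 0.040 on control 6 (nearest -0.07). EPX on control 1 was at 0.31 in the log2 ratio (nearest 0.04) and at 7.93 in the Cy3 level (nearest 7.23). BMP15 was at a Cy3 level of 8.47 on control 2 (nearest 7.90).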

How the results depend on the processing

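MPO, CEBPE and PRSS57 were higher in cold under every setting run. MPO moved to 1.94 in Cy3 alone, CEBPE to 0.51 with median centring, and PRSS57 to 0.55 with median centring and 0.50 with the scanner software's processed intensities. The leave-one-array-out fits of Cy3 alone and the values within a slide position were chosen after seeing the data. The count of genes past the adjusted threshold was 0 in the ratio, 741 in Cy3 alone, 115 with the filter on all 10 arrays and 5 with slide position as a block, and ran from 0 to 1272 without single arrays (1272 without cold 2, 633 without control 5, 12 without cold 1). The count past the unadjusted threshold was 2272, against 1505 with processed intensities, 1163 with median centring, 1093 in the deposited values and 1275 to 3386 without single arrays (1275 without cold 3, 1425 without control 1, 1504 without control 2). Lineage genes past it numbered 17 higher and 2 lower. The higher count was 11 with processed intensities, 2 with median centring, 6 in the deposited values, 10 by the methods' t-test and 12 to 18 without single arrays. The lower count was 1 with processed intensities, 4 with median centring, and 1 without cold 3 or cold 4 and 4 without cold 2 or control 3. Adjusted lineage calls were 0, against 9 in Cy3 alone, 1 with the filter on all 10 arrays and 0 to 8 without single arrays (8 without cold 2, 6 without control 5). The replicate numbers do not pair the ferrets: same-numbered arrays deviated with r = -0.30, 0.54, 0.10 and -0.19, and the replicate block gave 26 higher and 4 lower lineage genes. Signs turned under median centring, where all genes shifted by -0.43, for CD63 (-0.52), CSF2RB (-0.12), NCF4 (-0.40), CTSS (-0.57), RRM2 (-0.13), NUP93 (-0.19), HABP4 (-0.29), OGFOD2 (-0.031), SPI1 (-0.86), CSF3R (-0.48) and LYZ (-0.56). Relative to that shift, CD63, CTSS, SPI1, CSF3R and LYZ lay below all genes, and the others still lay above. They also turned in the deposited values for CTSS (-0.011), SPI1 (-0.29) and CSF3R (-0.062), with processed intensities for HABP4 (-0.087), and without cold 4 for CTSC, which ran from -0.14 to 0.0068 without single arrays. Without single arrays, the unadjusted calls of CD63, CTSS, KLF4, NUP93, ZNF296, HABP4 and CAT were lost in some fits, while all 10 such fits kept those of the other lineage genes named with a call. The cause of these shifts was not tested.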
